A study of Mus musculus with 10 samples.

Results

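The plasminogen system of mouse liver was followed here through 9 genes, taken by symbol from the 24421 genes listed in the count table. They are Plg, the activators Plat and Plau with the receptor Plaur, the inhibitors Serpinf2 and Serpine2, the plasma binding proteins Vtn and Hrg, and the clearance receptor Lrp1. All 9 symbols were found, and 6 of them passed the filter on low counts. Hepatic mRNA from 10 male C57BL/6 J mice of 21 weeks was sequenced, with 1 library from each mouse. The Chow group (n = 5) ate standard chow, and the TM5614 group (n = 5) ate chow that supplied TM5614, an orally active small molecule, at 20 mg/kg/day for 10 days. The comparison asks whether the drug altered hepatic gene expression in healthy mice that carried no engineered allele.

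Plasminogen is a zymogen that is made mainly by hepatocytes and secreted into plasma, where it binds to fibrin and to cell surfaces. Tissue-type and urokinase-type plasminogen activators cut it to plasmin, the protease that dissolves fibrin clots and also acts on matrix proteins and growth factor precursors. Serpins, suicide inhibitors that trap their protease in a covalent complex, hold activators and plasmin in check, and endocytic receptors on hepatocytes clear the complexes.

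Total counts ran from 6398335 to 10874955 per library. Chow replicate 2 stood apart: a trend on GC content and gene length accounted for 50.8% of the variance of its deviations across genes, against 0.902% to 13.3% in the other 9 libraries. TM5614 replicate 2 held 31234 counts of 7 skeletal muscle genes (0.422% of its total), TM5614 replicate 3 held 625, and the Chow libraries held 0 to 3 each. Where leaving out 1 of these libraries took a member that passed the filter across 0.05 in a test, both results are given. Shifts that crossed no threshold are not all given. The permutation tests of Plat, Plau and Plaur were not repeated without these libraries. Of the 11092 genes tested, 4.5% passed an adjusted p of 0.05 in edgeR's quasi-likelihood test with Benjamini-Hochberg adjustment, 2.77% being lower and 1.73% higher in the TM5614 group.

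Promoter windows of 300 bases, 250 before and 50 after the RefSeq start on GRCm38.p6, were matched for 6 of the 9 genes. Those of Serpinf2, Hrg and Vtn are printed because these plasma protein genes had the lowest estimates of the 6 that were tested, and that of Serpine2 because its estimate alone was above 0. Each is written 5′ to 3′ on the strand of its gene. Capitals mark exact matches, on either strand, to 5 short patterns. The core promoter pattern searched was TATAAA, and the upstream box was CCAAT. The box rich in G and C was GGGCGG. For hepatocyte factors the core of the HNF4 half-site was searched as CAAAG, and the half-site of HNF1 was searched as GTTAAT.
Serpinf2, chr11:75439452-75439751, minus strand: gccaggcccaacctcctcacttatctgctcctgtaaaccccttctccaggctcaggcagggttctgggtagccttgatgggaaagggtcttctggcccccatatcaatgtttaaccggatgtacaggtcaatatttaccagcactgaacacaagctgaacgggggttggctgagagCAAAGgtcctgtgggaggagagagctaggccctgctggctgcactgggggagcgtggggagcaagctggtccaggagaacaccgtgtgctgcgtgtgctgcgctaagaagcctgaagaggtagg
Hrg, chr16:22950822-22951121, plus strand: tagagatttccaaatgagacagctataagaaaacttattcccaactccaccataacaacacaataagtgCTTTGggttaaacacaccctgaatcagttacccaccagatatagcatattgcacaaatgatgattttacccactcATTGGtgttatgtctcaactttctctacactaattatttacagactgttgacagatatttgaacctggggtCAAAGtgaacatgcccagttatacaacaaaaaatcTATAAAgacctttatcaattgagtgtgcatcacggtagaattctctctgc
Vtn, chr11:78498870-78499169, plus strand: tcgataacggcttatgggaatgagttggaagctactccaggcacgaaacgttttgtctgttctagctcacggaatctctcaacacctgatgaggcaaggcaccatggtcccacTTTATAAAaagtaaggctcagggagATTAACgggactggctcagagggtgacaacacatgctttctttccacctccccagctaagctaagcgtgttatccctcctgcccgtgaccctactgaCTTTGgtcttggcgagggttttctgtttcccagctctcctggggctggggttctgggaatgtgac
Serpine2, chr1:79858616-79858915, minus strand: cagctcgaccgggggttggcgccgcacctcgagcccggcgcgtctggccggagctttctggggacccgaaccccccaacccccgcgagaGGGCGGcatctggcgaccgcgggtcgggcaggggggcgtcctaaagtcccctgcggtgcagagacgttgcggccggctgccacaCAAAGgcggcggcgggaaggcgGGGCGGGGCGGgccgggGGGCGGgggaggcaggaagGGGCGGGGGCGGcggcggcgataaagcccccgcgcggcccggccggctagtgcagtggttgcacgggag

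The 4 windows differ in base composition, from 36.7% GC in Hrg and 51.7% in Vtn to 57.3% in Serpinf2 and 77.7% in Serpine2. The Hrg window holds 1 TATAAA, 1 CCAAT and 2 CAAAG matches. The Vtn window holds TATAAA on both strands, where the 2 matches overlap, together with 1 CAAAG and 1 GTTAAT match. The Serpinf2 window holds 1 match to CAAAG and none to the other 4 patterns. The Serpine2 window holds 6 GGGCGG matches, of which 1 pair shares a base, and 1 CAAAG match. Among 32851 windows of the same length, 13.6% hold TATAAA, 37.4% CCAAT, 35.7% GGGCGG, 53.9% CAAAG and 7.1% GTTAAT. The Lrp1 window holds 1 GGGCGG and 1 CAAAG match, and the Plaur window holds 3 GGGCGG matches. A match is a run of letters and was not tested as a binding site. The window of Serpine2 lies inside the gene as GENCODE draws it, which begins upstream of the RefSeq start.

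Levels were compared between genes in FPKM, which is counts per gene length and scaled library. The genes formed 3 tiers. The plasma protein genes led: over all 10 libraries the mean was 1421.6 FPKM for Vtn (rank 48 of all genes), 1149.7 for Plg (rank 59), 909.5 for Hrg (rank 70) and 467.0 for Serpinf2 (rank 143). Lrp1 (44.7 FPKM, rank 1313) and Serpine2 (4.8 FPKM, rank 6233) came next. The activators and the urokinase receptor were at the bottom, with 0.491 FPKM for Plau, 0.347 for Plat and 0.249 for Plaur. From Vtn down to Plau each gene exceeded the next in 10 of 10 libraries. The order of the last 3 was not fixed, since Plau exceeded Plat in 8 libraries and Plat exceeded Plaur in 7.

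**Figure D1:**
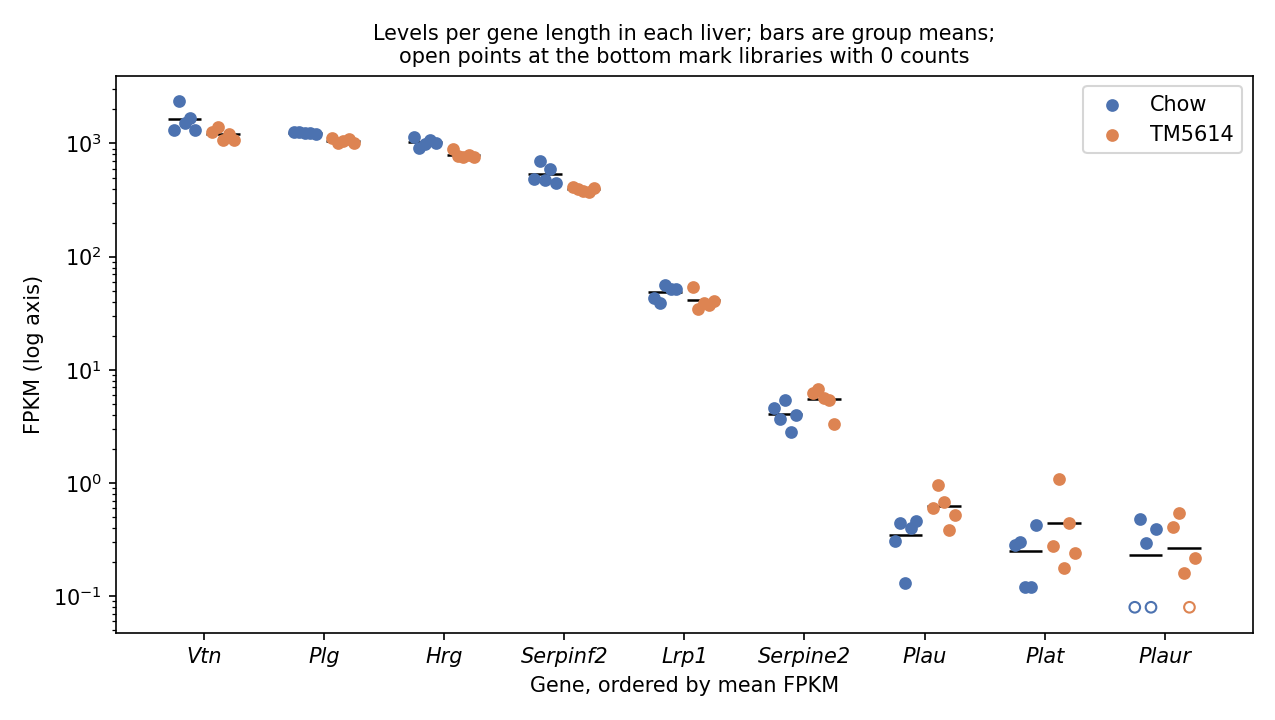
FPKM of the 9 genes (log axis) in each of the 5 Chow and 5 TM5614 livers, ordered by mean, with bars for group means and open points for libraries with 0 counts. The 4 plasma protein genes lie at 375.0 FPKM or above in every library, and the 3 genes on the right reach at most 1.09 FPKM.

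The first question was whether the livers of treated mice held other amounts of these mRNAs. In the TM5614 group 5 of the 6 tested genes had estimates below 0, with a median log2 fold change (TM5614 over Chow) of -0.30. Among all genes tested 48.5% had estimates below 0, with a median of 0.01. Plg, Serpinf2 and Hrg were lower in each of the 5 treated livers than in any Chow liver. Of all genes tested, 4.87% showed such a separation downwards and 4.07% upwards. By edgeR's quasi-likelihood test with Benjamini-Hochberg adjustment 0 of the 6 passed, although 4 had an unadjusted p under 0.05, as did 20.4% of all genes. DESeq2, the test of the study, passed 3 of the 6, all lower, while over the genes to which it gave an adjusted p 8.14% passed in either direction and 5.04% lower. With limma-voom and sample quality weights, which give less weight to libraries that stand apart, 3 of the 6 passed, all lower, and over all genes 12.5% passed in either direction and 7.25% lower. A p that misses the threshold does not show that the groups were alike, and in whole tissue fewer cells of a type and less RNA per cell cannot be told apart.

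**Figure D2:**
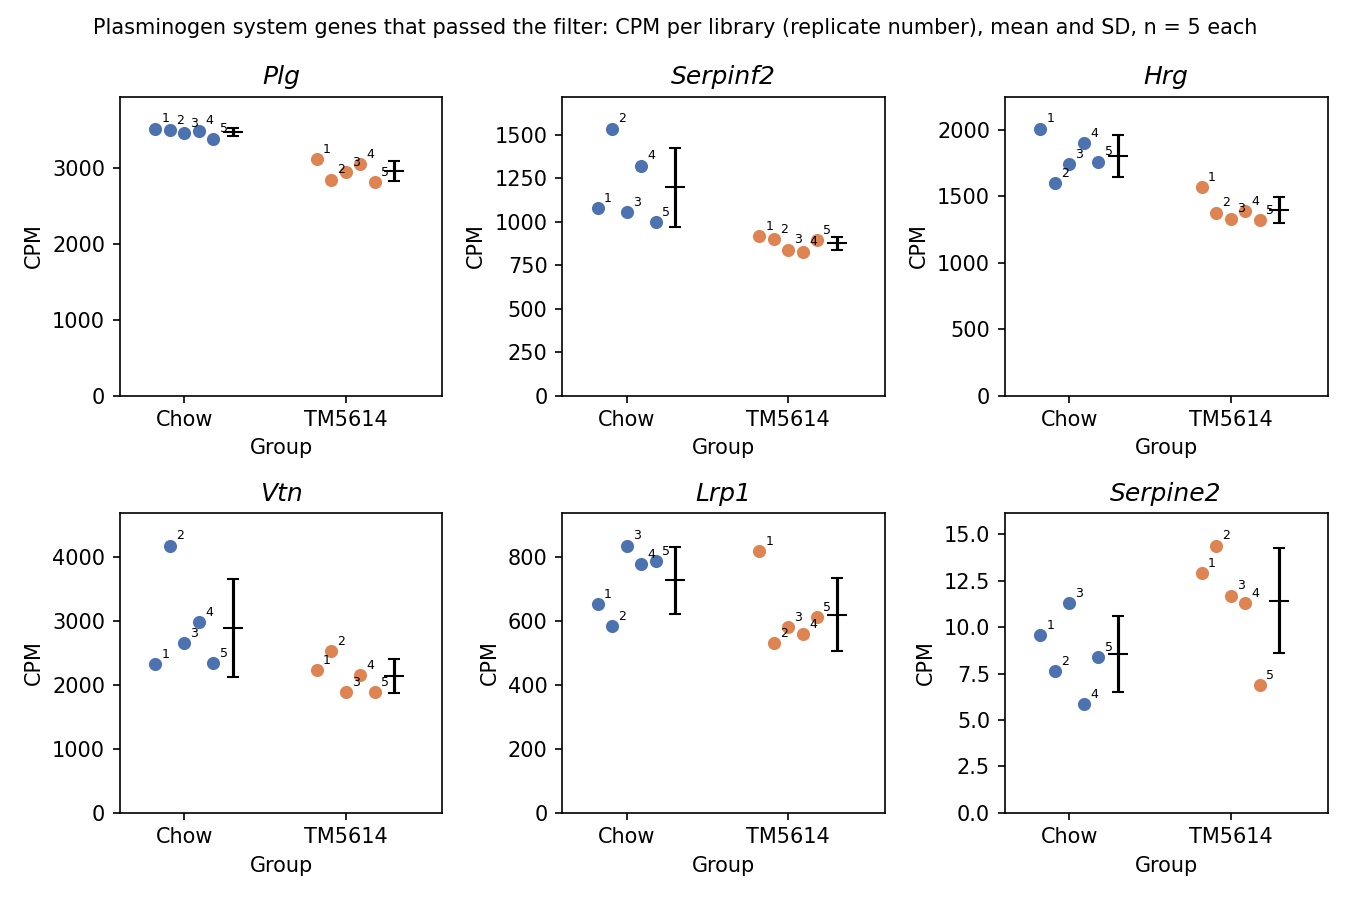
CPM (linear axes from 0) of the 6 genes that passed the filter, 1 point per liver labelled with its replicate number, beside the group mean and SD (n = 5 each). Plg, Serpinf2 and Hrg do not overlap between groups, while Vtn, Lrp1 and Serpine2 do.

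Plg (chromosome 17, 12378608 to 12419385, plus strand, 19 exons in its longest coding transcript) encodes plasminogen. CPM, counts scaled to library size with TMM factors, were 3514.9, 3489.4, 3459.0, 3488.4 and 3383.1 in the Chow libraries. In the TM5614 libraries they were 3116.8, 2841.6, 2942.0, 3048.3 and 2806.9. The coefficient of variation was 1.47% in the Chow livers and 4.47% in the treated livers, and the highest treated liver stayed below the lowest Chow liver. The means of 3467.0 ± 50.9 and 2951.1 ± 132.0 CPM (SD, n = 5 each) gave a log2 fold change of -0.23 (SE 0.084), or -14.9%. Its adjusted p was 0.15 in edgeR's quasi-likelihood test with Benjamini-Hochberg adjustment and 0.00113 in DESeq2. The exact two-sided permutation test of log2 CPM gave p = 0.00794, the smallest this design allows. After the trend of each library on GC content and gene length was taken out, the means were 3470.6 ± 130.6 and 2949.7 ± 180.9 CPM (SD, n = 5 each), so that the Chow spread was wider, and the groups still did not overlap. DESeq2 and limma-voom with sample quality weights were the only 2 of 23 alternative settings in which Plg passed. The 3′ end of Plg overlaps Slc22a3 on the other strand, and since the use of strand in counting is not stated, reads there could be assigned to either gene.

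The activators gave few counts. Plat (chromosome 8, 22757727 to 22782844, plus strand) encodes tissue-type plasminogen activator, a product chiefly of endothelial cells and neurons. It had 6, 8, 3, 2 and 12 counts in the Chow libraries and 5, 22, 4, 10 and 6 in the TM5614 libraries. The count of 22 came from TM5614 replicate 2, the library with the muscle transcripts, and the other 4 treated livers lay within the range of the Chow livers or just above it in CPM. The exact permutation test of log2(CPM + 0.2) gave p = 0.294.

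Plau (chromosome 14, 20836660 to 20843385, plus strand) encodes urokinase-type plasminogen activator. Counts were 6, 11, 3, 6 and 12 in the Chow libraries. They were 10, 18, 14, 8 and 12 in the TM5614 libraries. Scaled to library size, 4 of 5 treated livers exceeded every Chow liver, with means of 0.831 ± 0.324 and 1.5 ± 0.531 CPM (SD, n = 5 each). The exact two-sided permutation test gave p = 0.0397, unadjusted. It includes TM5614 replicate 2, the library with the muscle transcripts, which gave the highest value (2.34 CPM). When edgeR was run with no filter, over 17291 genes, the log2 fold change was 0.83 (SE 0.39) with an adjusted p of 0.325.

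Plaur (chromosome 7, 24462484 to 24475968, plus strand) encodes the receptor that holds urokinase on the cell surface. It had 0, 7, 4, 0 and 6 counts in the Chow libraries and 4, 6, 2, 0 and 3 in the TM5614 libraries, so that 3 libraries held none, and a count of 0 allows up to 3 counts. No difference was detectable at this depth (exact permutation test, p = 0.786). Counting error alone was 54.2% of the Chow mean of Plaur, 40.2% for Plat and 36.3% for Plau.

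Among the inhibitors, Serpinf2 (chromosome 11, 75431732 to 75439591, minus strand) encodes antiplasmin, the main plasma inhibitor of free plasmin. It measured 1078.6, 1537.6, 1054.7, 1323.5 and 997.0 CPM in the Chow libraries. In the TM5614 libraries it measured 918.0, 900.4, 840.4, 828.4 and 893.2 CPM. The Chow livers were spread widely, with replicates 2 and 4 high, while the treated livers lay close together below all of them. The means of 1198.3 ± 227.1 and 876.1 ± 39.3 CPM (SD, n = 5 each) gave a log2 fold change of -0.45 (SE 0.128), or -26.9%. Its adjusted p was 0.0717 in edgeR's quasi-likelihood test with Benjamini-Hochberg adjustment and 0.0158 in DESeq2, and the exact permutation test gave p = 0.00794.

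Chow replicate 2, the library with the GC content and length trend, gave the highest Serpinf2 value. When the trend of each library on GC content and gene length was taken out, this library went from 1537.6 to 1132.6 CPM. The group means then were 1124.0 ± 112.8 and 899.2 ± 33.4 CPM (SD, n = 5 each), and the groups still did not overlap. With that correction in the fit the log2 fold change was -0.32 and the edgeR adjusted p was 0.0368, so Serpinf2 fell past the threshold, as did 4.24% of all genes. Without Chow replicate 2 the log2 fold change was -0.35 and the edgeR adjusted p was 0.0319, beside 5.61% of all genes lower in that fit.

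Serpine2 (chromosome 1, 79794197 to 79861180, minus strand) encodes glia-derived nexin, a serpin of cell surfaces and matrix that inhibits thrombin, urokinase and plasmin. It gave 79, 79, 108, 37 and 91 counts in the Chow libraries and 90, 111, 102, 99 and 67 in the TM5614 libraries. In CPM the Chow livers stood at 9.58, 7.62, 11.3, 5.86 and 8.37, and the treated livers at 12.9, 14.4, 11.7, 11.3 and 6.88. The first 4 treated livers lay above all Chow livers and TM5614 replicate 5 lay below 4 of them. TM5614 replicate 4 and Chow replicate 3 were nearly tied at 11.3 CPM. With the GC content and length trend taken out, TM5614 replicates 3 (11.8 CPM) and 4 (11.4 CPM) lay below Chow replicate 3 (11.9 CPM). The log2 fold change was 0.41 (SE 0.216) with an adjusted p of 0.309 in edgeR's quasi-likelihood test and 0.304 in DESeq2. The exact permutation test gave p = 0.119, and p = 0.0159 without TM5614 replicate 5. With limma-voom and sample quality weights together the log2 fold change was 0.21, and it was 0.26 when both libraries numbered 2 were left out.

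The summed level of 8 stellate cell markers was 165.8 to 297.9 CPM in the Chow libraries and 265.4 to 354.1 CPM in the TM5614 libraries, with 7 of 8 estimates above 0 and 0 genes past the edgeR threshold. Its part in the values of Serpine2, which mesenchymal cells express, was not tested. The 8 endothelial markers summed to 101.0 to 169.0 CPM in the Chow group and 101.5 to 175.8 CPM in the TM5614 group.

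Vtn (chromosome 11, 78499091 to 78502324, plus strand) encodes vitronectin, an adhesive plasma and matrix protein that binds integrins, the urokinase receptor and serpins. CPM were 2320.8, 4176.2, 2650.1, 2982.7 and 2339.0 in the Chow libraries and 2227.7, 2523.7, 1886.7, 2150.8 and 1883.1 in the TM5614 libraries. Chow replicate 2 was the highest of the Chow libraries and TM5614 replicate 2 the highest of the treated ones, and 4 of 5 treated livers lay below all Chow livers. The log2 fold change was -0.44 (SE 0.167), or -26.2%, with an adjusted p of 0.167 in edgeR's quasi-likelihood test and 0.111 in DESeq2. The exact permutation test gave p = 0.0317, and p = 0.0714 with a log2 difference of -0.27 without Chow replicate 2.

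After the trend on GC content and gene length was taken out, Chow replicate 2 moved from 4176.2 to 2731.8 CPM of Vtn, inside the range of the other Chow livers. The means became 2616.0 ± 210.0 and 2202.5 ± 147.8 CPM (SD, n = 5 each), and the groups no longer overlapped, as in 5.15% of all genes. The log2 fold change shrank to -0.25 in that fit, with an edgeR adjusted p of 0.105. Vtn passed in 0 of the 23 alternatives.

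Hrg (chromosome 16, 22951072 to 22961656, plus strand) encodes histidine-rich glycoprotein, a plasma protein of the cystatin superfamily that binds plasminogen, heparin and fibrinogen. CPM were 2010.2, 1600.6, 1741.8, 1900.7 and 1761.0 in the Chow libraries. They were 1570.9, 1378.0, 1332.9, 1386.2 and 1322.6 in the TM5614 libraries. TM5614 replicate 1 lay apart from the other treated livers and just below Chow replicate 2, the lowest Chow liver. The means of 1802.8 ± 157.3 and 1398.1 ± 100.5 CPM (SD, n = 5 each) gave a log2 fold change of -0.37 (SE 0.099), or -22.4%. Its adjusted p was 0.0613 in edgeR's quasi-likelihood test with Benjamini-Hochberg adjustment, the lowest of the 6, and 0.00152 in DESeq2. The exact permutation test gave p = 0.00794.

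Hrg passed the threshold in 6 of the 23 alternatives, more often than any other of the 6 genes. Each of those settings passed more genes over the whole table (774 to 1386) than any other setting. Without Chow replicate 2 the log2 fold change was -0.41 with an edgeR adjusted p of 0.00905, beside 5.61% of all genes lower. With the correction for GC content and length it was -0.38 with an edgeR adjusted p of 0.0276, beside 4.24% of all genes lower. In the corrected CPM, however, Chow replicate 2 (1543.5) and TM5614 replicate 1 (1596.6) changed places, so the groups overlapped.

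**Figure D3:**
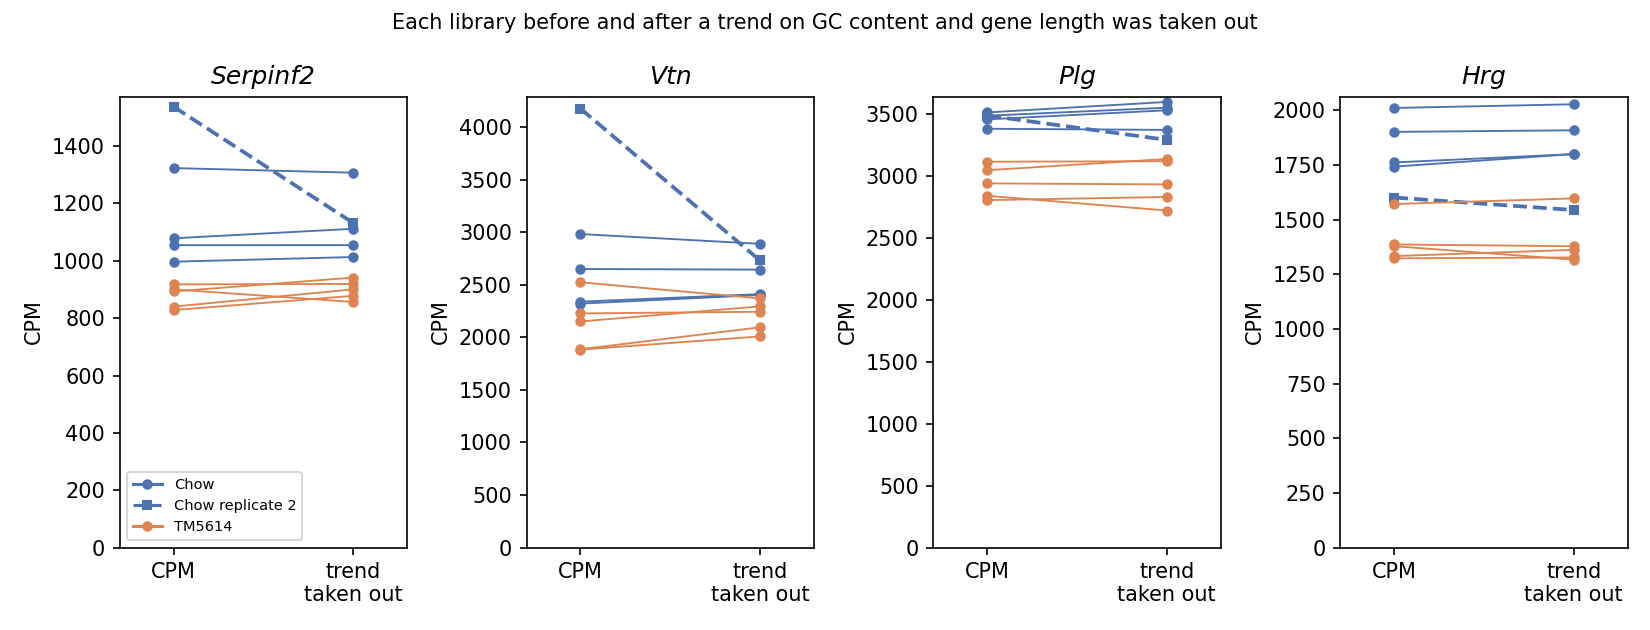
CPM of Serpinf2, Vtn, Plg and Hrg in each of the 10 libraries, as scaled and after each library's trend on GC content and gene length was taken out (linear axes from 0, 1 line per library, Chow replicate 2 dashed). Chow replicate 2 drops from 1537.6 to 1132.6 for Serpinf2 and from 4176.2 to 2731.8 for Vtn, while the other lines in those panels move by less.

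Lrp1 (chromosome 10, 127538161 to 127621148, minus strand, 89 exons in its longest coding transcript) encodes a large endocytic receptor of hepatocytes that takes up complexes of serpins with their proteases. CPM were 653.1, 583.9, 837.3, 778.7 and 789.3 in the Chow libraries and 820.9, 531.3, 581.5, 558.6 and 613.1 in the TM5614 libraries. TM5614 replicate 1 was second only to Chow replicate 3, while 3 of the other treated livers lay below all Chow livers. The log2 fold change was -0.23 (SE 0.145), with an adjusted p of 0.388 in edgeR's quasi-likelihood test and 0.39 in DESeq2. It was -0.35 without TM5614 replicate 1 (edgeR adjusted p = 0.19) and -0.10 with the correction for GC content and length (edgeR adjusted p = 0.723). The antisense gene Gm16217 lies within Lrp1, and reads from the pair cannot be told apart where strand was not used.

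**Figure D4:**
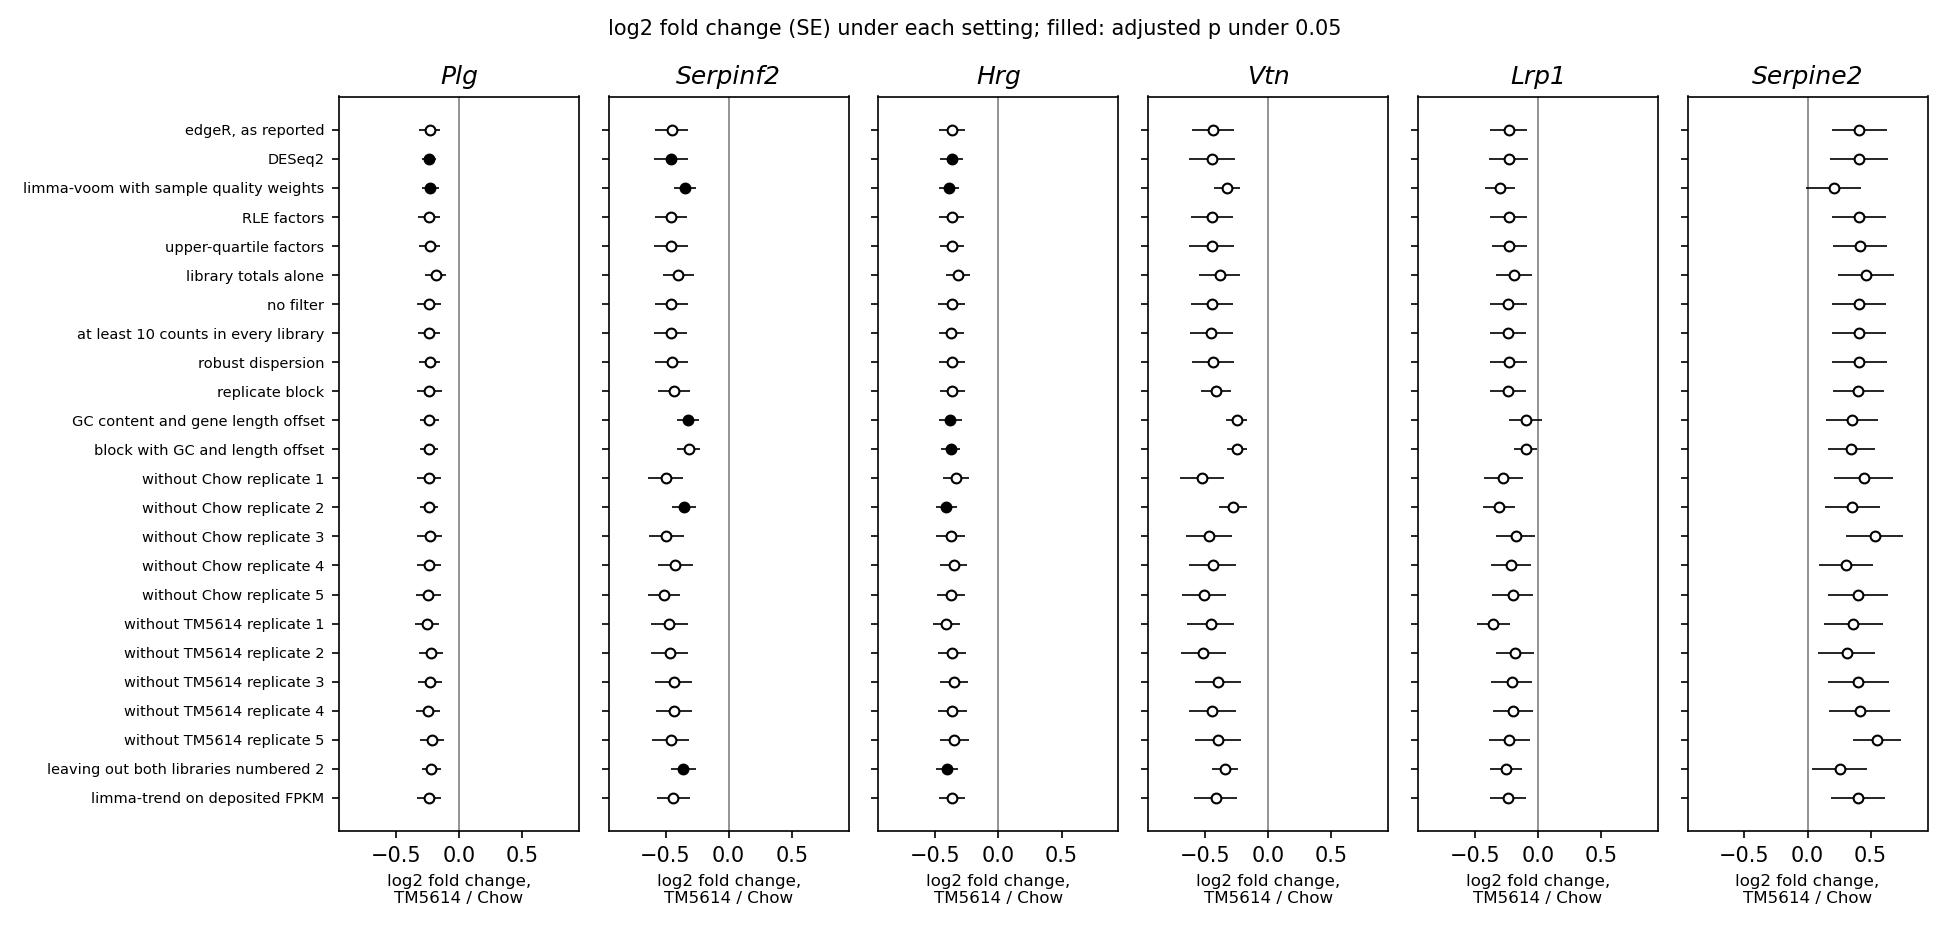
The log2 fold change (TM5614 over Chow) with its SE for the 6 genes under the reported fit and 23 alternatives, with filled points where the adjusted p was under 0.05. All estimates for Plg, Serpinf2, Hrg, Vtn and Lrp1 lie below 0 and all for Serpine2 lie above 0, and the filled points number 2 for Plg, 5 for Serpinf2 and 6 for Hrg.

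The balance of the genes within a liver was read from ratios of FPKM, as a description. Plg stood at 2.36 ± 0.39 times the level of Serpinf2 in the Chow group and 2.69 ± 0.183 times in the TM5614 group (SD, n = 5 each). Hrg stood at 0.825 ± 0.0679 and 0.751 ± 0.034 of the level of Plg, and Vtn at 1.32 ± 0.342 and 1.14 ± 0.152. Serpinf2 exceeded Serpine2 by 141.1 ± 55.4 times and 76.6 ± 25.6 times. The ranges of the groups overlapped for all 4 ratios. Chow replicate 2, the library with the GC content and length trend, gave the highest Chow ratio of Vtn to Plg (1.89). It also gave the lowest Chow ratio of Plg to Serpinf2 (1.81). These ratios were not corrected for that trend.

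Variation between livers of the same group was read from deviations of log2 CPM from the group means. Of the 15 pairs among the 6 genes, 10 had a Pearson r above 0 over all 10 libraries and 13 without both libraries numbered 2, and 5 changed sign. The highest correlation was between Serpinf2 and Vtn (Pearson r = 0.861 over 10 libraries, and 0.685 without both libraries numbered 2). Plg and Hrg gave r = 0.537, and 0.764 without those libraries. Vtn and Lrp1 gave r = -0.368, and 0.486 without them, and Vtn and Hrg gave -0.356, and 0.354 without them. Serpine2 and Serpinf2 gave r = -0.387, and -0.56 without them. These points share libraries, depth and base composition, and are given as a description.

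The genes most like each member, by the same measure among 8598 tested genes (the member included) with a mean of at least 50 counts, were as follows. For Plg they were Eif4h (r = 0.879), Cluh (0.863) and Supv3l1 (0.86), and for Hrg they were Gpsm2 (0.925), Sec22c (0.896) and Slc39a8 (0.862). For Serpinf2 they were Supt5 (0.98), H2-T23 (0.973) and Rnf167 (0.969), and for Vtn they were Fam98c (0.987), Mpnd (0.986) and Leprotl1 (0.986). For Serpine2 they were Lpar6 (0.927), Xbp1 (0.866) and Aktip (0.851), and for Lrp1 they were Numa1 (0.946), Zswim8 (0.936) and Srrm2 (0.91). Without both libraries numbered 2, 0 of these 18 genes stayed among the 3 most alike.

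The wider system was read from 51 further genes in 8 lists, 39 of which were tested. Of these, 25 (64.1%) had estimates below 0, against 48.5% of all genes, and the median log2 fold change was -0.09. Under edgeR's quasi-likelihood test with Benjamini-Hochberg adjustment 1 of the 39 passed, against 4.5% of all genes. This was Hgfac, the plasma protease that activates hepatocyte growth factor, which fell from 198.2 ± 75.5 to 109.8 ± 18.1 CPM (SD, n = 5 each). Its log2 fold change was -0.85 (SE 0.215, adjusted p = 0.0439), and its groups did not overlap, with 147.7 to 330.9 CPM in the Chow livers and 92.7 to 138.7 CPM in the treated livers. The highest value, 330.9 CPM, came from Chow replicate 2, without which the log2 fold change was -0.60 (edgeR adjusted p = 0.00739). Hgfac missed the threshold in 12 of the 23 alternatives, among them no filter and the loss of any single library other than Chow replicate 2 or 4, with adjusted p-values from 0.00454 to 0.131 over all 23. DESeq2 passed 3 of the 39, beside 8.14% of all genes. Besides Hgfac these were, both lower, Cpb2, the carboxypeptidase that removes plasminogen binding sites from fibrin (log2 fold change -0.40, adjusted p = 0.00904), and F11, a contact system zymogen (-0.49, adjusted p = 0.0105).

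The 8 lists differed in their medians. All 5 contact system genes had estimates below 0, with a median of -0.24 and 0 past the edgeR threshold. The 2 cystatin-fold relatives of Hrg, Ahsg and Fetub, stood at -0.34 and -0.31, and the groups did not overlap for Ahsg (edgeR adjusted p = 0.179). They did not overlap either for Hmgb1, a plasminogen binding protein of cells, at -0.20 (edgeR adjusted p = 0.262). With Hgfac these were all of the tested listed genes whose groups separated, beside 4.87% of all genes downwards and 4.07% upwards. The 3 fibrinogen chains, the main substrate of plasmin, were near 0, with -0.06 for Fga, -0.15 for Fgb and -0.02 for Fgg. The other inhibitors had a median of -0.03 over 4 tested genes, the uptake receptors and their chaperone -0.03 over 5, and the plasminogen receptors and cofactors -0.19 over 5. Of the 6 tested integrin genes 1 had an estimate below 0, and their median was 0.13. Hgf, the substrate of the Hgfac product, had a log2 fold change of 0.80 at 3.5 and 6.1 CPM (edgeR adjusted p = 0.18), and its receptor gene Met had 0.06.

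**Figure D5:**
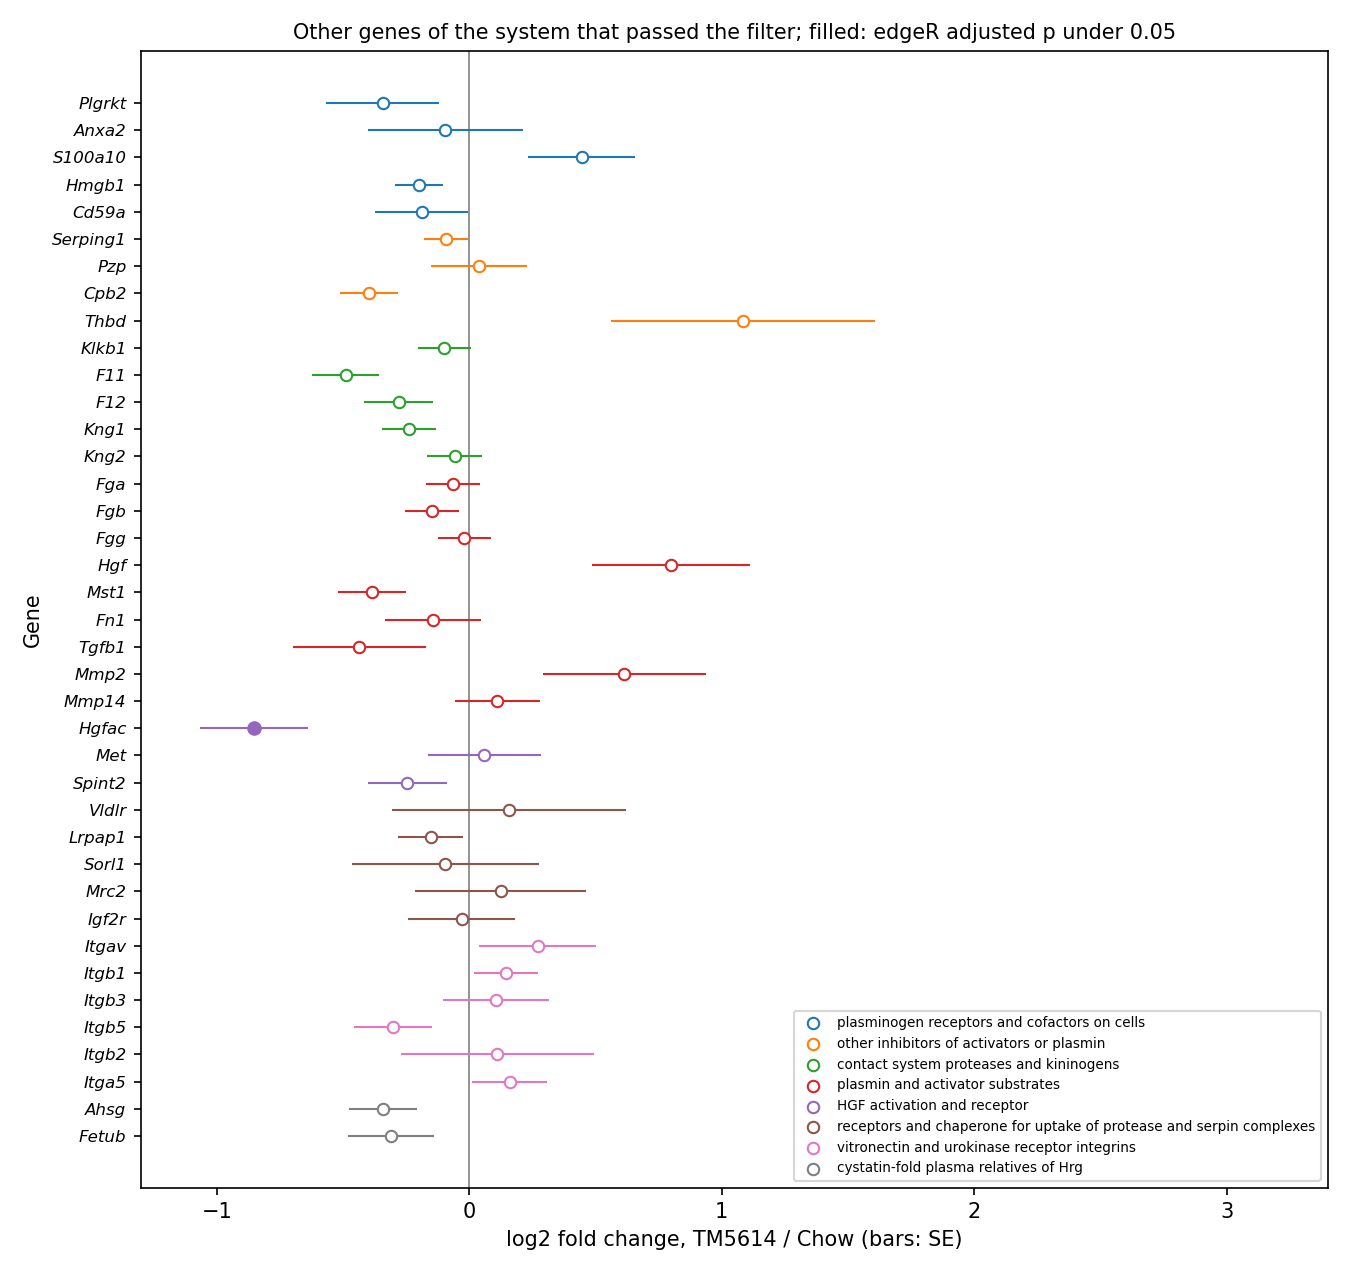
The log2 fold change (TM5614 over Chow) with its SE for the 39 other genes of the system that passed the filter, coloured by list. Hgfac, at -0.85, is the only filled point, which marks an edgeR adjusted p under 0.05.

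The tissue held hepatocytes, as labelled: 5 of 5 markers were detected, and they summed to 102817.4 to 116660.2 CPM in the Chow libraries and 89116.8 to 106210.0 CPM in the TM5614 libraries. Their median log2 fold change was 0.02, with 0 genes past the edgeR threshold and 1 past that of DESeq2. This was Ttr, the gene of the plasma protein transthyretin (log2 fold change -0.62, adjusted p = 0.104 in edgeR's quasi-likelihood test and 0.0423 in DESeq2). The groups did not overlap for Ttr, as in 4.87% of all genes downwards. Chow replicate 2 gave its highest value, 9574.6 CPM, against 4753.1 to 5172.7 CPM in the other Chow libraries. All 9 Kupffer cell markers had estimates below 0, with a median of -0.37, sums of 74.2 to 236.8 and 76.9 to 162.3 CPM, and 0 genes past the edgeR threshold. The part of these markers in the lower estimates of the plasma protein genes was not tested. The 5 cholangiocyte markers summed to 32.8 to 50.0 CPM in the Chow group and 27.3 to 73.7 CPM in the TM5614 group, and the 4 neutrophil markers in the table summed to at most 2.98 CPM in any library. The part of the muscle transcripts of TM5614 replicate 2 in its high counts of Plat, Plau and Serpine2 was not tested.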

How the data were processed

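Poly(A) RNA libraries from liver were sequenced by the authors as single-end reads and aligned with STAR to mm10 in the RNA Express application. HOMER is also named in the submitters' processing notes, without a role. Neither versions nor annotation, nor whether counting used strand, are given in the sources used here. The authors deposited unnormalized counts per gene symbol, which were used for all main tests. The deposited FPKM values, counts divided by gene length and by a library factor equal to DESeq2's size factor, were used for levels between genes. The authors' regularised log2 values and their table of mean count, log2 fold change, standard error, statistic, p-value and adjusted p-value were not used. Some genes of the system are not reported here.

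The 9 genes and all lists were chosen with earlier results of these data known. Groups and replicate numbers came from the sample titles, and columns were matched by mouse number. Nothing in the labels gives a batch. The 20 within-group pairs of libraries differed by at least 6.17 in chi-square per degree of freedom, so none was taken for a library deposited again. Genes were filtered with filterByExpr, scaled with TMM and tested with edgeR 4.0.16 (quasi-likelihood, two-sided, no covariate) in R 4.3.3. P-values were adjusted by Benjamini-Hochberg over 11092 genes, with a threshold of 0.05. CPM use TMM, and log2 CPM a prior count of 2. Genes under the filter were tested by permutation, and by edgeR only in alternative fits whose filter let them in. The GC content and length correction took a spline with 5 degrees of freedom for each property out of every library, and 96.7% of tested genes had both values. Alternatives were DESeq2 1.42.0, limma 3.58.1 (voom with sample quality weights, and trend on FPKM + 0.1), other scalings and filters, robust dispersion, the replicate number as a block, and libraries left out. Tests were also run on simulated data, but the outcome is not reported here and no error rate is drawn from it. Named genes were all 9, listed genes past the threshold, and the 3 genes most correlated with each tested member. Other list genes are named for their role and were chosen after their values were seen. Depth limits genes of a few counts, and a count of 0 allows up to 3 counts. That floor covers counting error only. Coordinates are from GENCODE M21 on GRCm38, the assembly mm10 names.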

Additional observations from a re-analysis of the deposited data

Results flagged for a closer look

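In each of 18 groups of 5 libraries (9 genes, both groups) the highest or lowest library was compared with its nearest neighbour. It was singled out where that gap exceeded 0.71 of the whole range of the group. This picked 3 values, where chance picks about 1 in 20, or 0.9 of 18. Plat was 2.85 CPM in TM5614 replicate 2, against 0.459 to 1.14 CPM in the other treated livers, and this is the library with 31234 muscle counts. Hrg was 1570.9 CPM in TM5614 replicate 1, against 1322.6 to 1386.2 CPM in the others. Lrp1 was 820.9 CPM in the same library, against 531.3 to 613.1 CPM in the others. The cause of these values was not tested.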

How the results depend on the processing

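All 23 alternatives kept the direction of all 6 tested genes. Over all alternatives 13 estimates crossed the threshold, all for Plg, Serpinf2 or Hrg. The adjusted p ranged from 0.00113 to 0.299 for Plg, 0.0158 to 0.177 for Serpinf2, 0.00152 to 0.16 for Hrg, 0.0519 to 0.342 for Vtn, 0.123 to 0.723 for Lrp1 and 0.173 to 0.597 for Serpine2. The exact permutation test of Vtn missed 0.05 without 6 single libraries (p = 0.0556 to 0.0794), and that of Lrp1 passed without TM5614 replicate 1 (p = 0.0317).

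With edgeR 499 genes, 0 of the 6 tested members and 1 of the 39 tested listed genes passed. DESeq2 passed 900, 3 and 3, and limma-voom with sample quality weights 1386, 3 and 4. The GC and length correction gave 774, 2 and 4, the same with the replicate block 813, 1 and 4, and leaving out both libraries numbered 2 gave 1230, 2 and 5. In all these settings the members that passed were lower. Among the listed genes 1 was higher with limma-voom and with the GC and length correction, with or without the block. Leaving out both libraries numbered 2 left 2 of the 5 listed genes higher. The listed genes went to 0 with upper-quartile factors, with no filter and with limma-trend on FPKM. Leaving out 1 library gave 235 (without TM5614 replicate 3) to 1031 (without Chow replicate 2) genes, 0 to 2 members and 0 to 4 listed genes. Of the 4 listed genes that passed without Chow replicate 2, 1 was higher. Counts also moved past 1.5 times without Chow replicate 3 (293), TM5614 replicate 1 (331) or TM5614 replicate 4 (259). The cause was not tested.

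The replicate block gave 555 genes, 0 members and 2 listed genes, 1 of them higher and 1 lower. Deviations of same-numbered libraries correlated at 0.03 to 0.32, not all above 0.1, and 3 of 10 libraries correlated best with their own number, so the numbers were not taken as pairs. The labels name no batch, and 5 livers a group limit all tests. Plat, Plau and Plaur are limited by depth.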
